A study of Homo sapiens with 12 samples.

Results

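A set of 10 of the 60230 lines in the deposited count table lay close to silence in normoxic 22Rv1 cells and stood several times higher after zotatifin. They were selected on measured values, in CPM (the estimated count divided by its column total, times 1000000). The rule asked for a mean below 0.5 CPM in normoxia vehicle, at least 2 CPM in normoxia zotatifin, below 2 CPM in hypoxia vehicle and below 16 CPM over all 12 columns. The hypoxia vehicle limit and the overall limit removed no line, since the rule without them found 10 lines, all 10 of them the same. The limits that involve hypoxia libraries therefore did not change the choice, and the normoxia limits alone give the same members. The rule itself was set with earlier results of these data known. The lines carry no gene names and the files do not pair them with genes, so no gene, pathway or function is given for any of them. The 10 members are ranked below by their mean in normoxia zotatifin. The first is line 5967 and the second line 11588, counted from the first data line of the table, and the others are called member 3 to member 10 by rank.

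22Rv1 is an established human prostate cancer cell line. The 12 libraries formed 4 groups of 3: Norm-Veh (normoxia, vehicle), Norm-Zota (normoxia, zotatifin), Hyp-Veh (1% oxygen, vehicle) and Hyp-Zota (1% oxygen, zotatifin), with zotatifin at 10 nM for 24 hours. The vehicle is not described further in the sources used here, and no allele or transgene is named for any group. All groups come from a single cell line, so any feature of that line is shared by all of them. The titles speak of biological replicates, but no label places them in separate cultures or on separate days, so p-values measure the spread between these libraries, which may be technical. The total estimated count per library was 15.6 to 16.5 M (mega) in Norm-Veh, 14.2 to 16.3 M in Norm-Zota, 10.5 to 12.2 M in Hyp-Veh and 10.4 to 15.5 M in Hyp-Zota.

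Zotatifin inhibits eIF4A, the RNA helicase that unwinds the leader of an mRNA so that the small ribosomal subunit can load and scan. Inhibitors of this kind act on translation first, and the RNA pool can then shift through changed synthesis or decay of transcripts. Low oxygen also lowers cap-dependent translation and switches on transcription through the hypoxia-inducible factors. RNA sequencing of bulk cells reads the share of each transcript in the pool, so more RNA in every cell and RNA in a few cells only cannot be told apart.

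The label of these lines as near-silent held for their level, not for absence. None of the 120 values of the members (10 lines in 12 libraries) was 0, and the lowest was 2 counts. Over the 3 Norm-Veh libraries a member had between 9 and 22 counts in all. The vehicle level was thus low but present in every library, and each rise started from a handful of counts rather than from none. Of the 43304 lines below 0.5 CPM in Norm-Veh, 16256 had a count in some normoxia library, 118 reached a mean of 1 CPM in Norm-Zota and 10 reached 2 CPM.

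**Figure D1:**
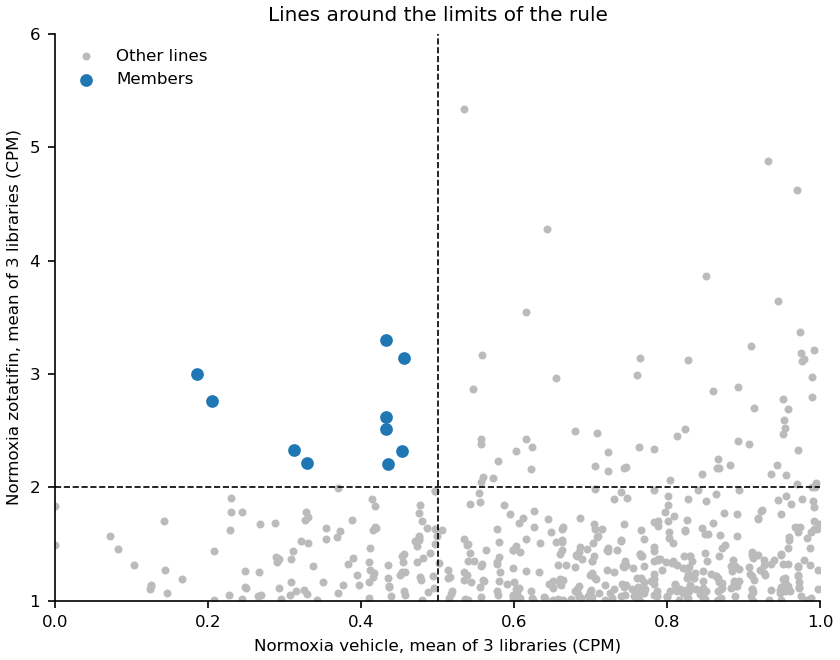
Mean CPM over 3 libraries in normoxia vehicle (horizontal axis) and normoxia zotatifin (vertical axis) for the 544 lines below 1 CPM in the first and from 1 to 6 CPM in the second. Dashed lines mark the limits of 0.5 and 2 CPM; the 10 members lie in the upper left field, and 1 further line lies above the drawn range.

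The limits cut through a continuous field of lines. The members closest to the zotatifin limit had Norm-Zota means of 2.205, 2.217 and 2.325 CPM, and the lines just below it had 1.998, 1.970 and 1.964 CPM. The members closest to the vehicle limit had Norm-Veh means of 0.456, 0.453 and 0.435 CPM, and the nearest lines on the other side that also reached 2 CPM in Norm-Zota had 0.535, 0.546 and 0.557 CPM. The first of these last 3 stood at 5.334 CPM in Norm-Zota, above every member. The same pair of limits read in the other direction (at least 2 CPM in Norm-Veh, below 0.5 CPM in Norm-Zota) was met by 9 lines.

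In normoxia the drug and vehicle libraries of the members were far apart, as the rule required. All 10 members had every Norm-Zota library above every Norm-Veh library, an order seen in 29.4% of the 17993 lines tested. All 10 were also called higher by edgeR's quasi-likelihood test (adjusted p under 0.05 over all tested lines), against 25.1% of tested lines. These counts follow from the choice and carry no weight of their own. Summed over the 10 members, the level was 3.37, 3.84 and 3.82 CPM in the Norm-Veh libraries and 24.4, 25.0 and 29.9 CPM in the Norm-Zota libraries.

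In hypoxia, whose libraries did not change which lines were chosen, the members came on again in large part. Zotatifin raised 9 of the 10 members at 1% oxygen by edgeR's test with Benjamini-Hochberg adjustment over the 17993 tested lines, where 27.7% of all tested lines were called higher. Of the 10 members, 8 were called with a rise of at least 2-fold, against 6.84% of tested lines. In 9 members every Hyp-Zota library lay above every Hyp-Veh library, against 30.5% of tested lines. The median log2 fold change was 1.62 over the members and -0.01 over all tested lines. The tested lines reach far higher levels than the members, and the shares among lines of the members' level were not computed. The tenth, member 5, had a higher mean with zotatifin but did not pass the test. The rise was not particular to the members. The lines described above as just outside the limits were all called higher in hypoxia too. Their log2 fold changes were 1.78, 2.26 and 1.41 below the zotatifin limit and 2.69, 1.27 and 1.35 beyond the vehicle limit. The summed level of the members was 10.9, 7.69 and 8.11 CPM in the Hyp-Veh libraries and 36.2, 32.6 and 37.1 CPM in the Hyp-Zota libraries. All 10 members were among the lines tested, by a low-count filter that used all 12 libraries. These include the Norm-Zota libraries, by which the members were chosen. In a fit of the hypoxia libraries alone member 7 did not pass the filter, and 8 members were called.

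**Figure D2:**
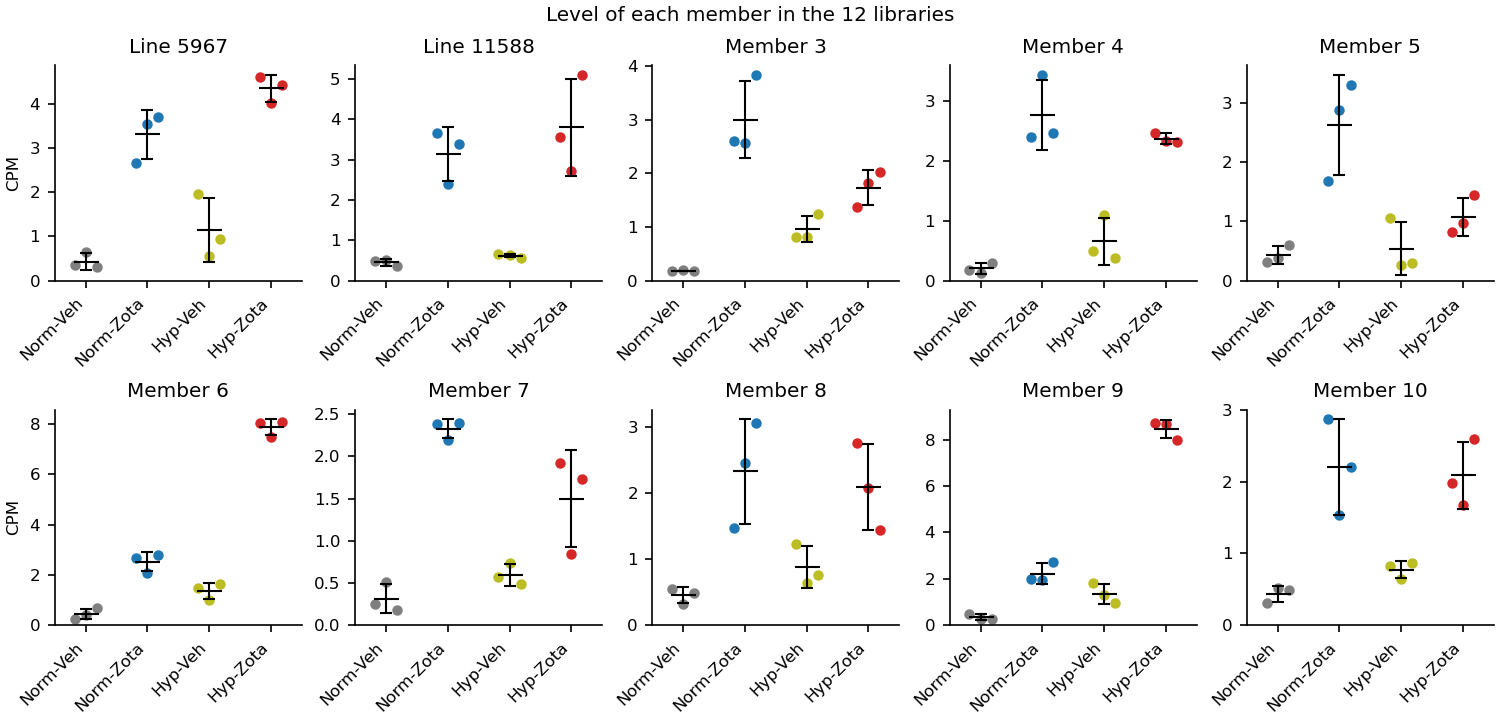
CPM of each of the 10 members in the 12 libraries, by group, with points for single libraries and bars for the mean and SD of 3 libraries; the vertical scale differs between panels and starts at 0. The highest levels, 7.51 to 8.72 CPM, are those of members 6 and 9 in Hyp-Zota, while member 5 overlaps between Hyp-Veh and Hyp-Zota.

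Members 6 and 9 reached the highest levels with zotatifin at low oxygen. Member 9 was at 0.49, 0.26 and 0.24 CPM in Norm-Veh and at 1.97, 1.96 and 2.73 CPM in Norm-Zota. In hypoxia it was at 1.80, 1.28 and 0.95 CPM with vehicle and at 8.72, 8.67 and 7.99 CPM with zotatifin. All 3 Hyp-Zota libraries were far above the rest, and the Hyp-Veh libraries lay between Norm-Veh and Norm-Zota. Its mean with zotatifin in hypoxia was 8.46 ± 0.41 CPM, against 1.34 ± 0.43 CPM with vehicle (SD, n = 3). The fitted log2 fold change was 2.63, the largest among the members (SE 0.26, adjusted p by edgeR = 2.5e-10). Member 6 had the same shape. It was at 0.25, 0.38 and 0.67 CPM in Norm-Veh, 2.67, 2.08 and 2.79 CPM in Norm-Zota, 1.47, 1.01 and 1.62 CPM in Hyp-Veh and 8.03, 7.51 and 8.08 CPM in Hyp-Zota. In hypoxia it rose by a log2 fold change of 2.52 (SE 0.26, adjusted p by edgeR = 7.79e-10). For both members the level with zotatifin was higher at low oxygen than in normoxia, by a ratio of means of 3.82 for member 9 and 3.13 for member 6. Their vehicle level was higher at low oxygen by a like ratio, 4.07 and 3.16. The ratio of drug to vehicle therefore came out close in the 2 oxygen conditions, at 6.71 and 6.23 for member 9 and at 5.76 and 5.74 for member 6.

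Line 11588 and line 5967, the members with the highest Norm-Zota means, also rose in hypoxia. Line 11588 was at 0.49, 0.51 and 0.36 CPM in Norm-Veh and 3.65, 2.39 and 3.38 CPM in Norm-Zota, then at 0.65, 0.64 and 0.57 CPM in Hyp-Veh and 3.57, 2.72 and 5.10 CPM in Hyp-Zota. Its vehicle means differed by a ratio of 1.37 between the oxygen conditions, and its zotatifin libraries overlapped between them. The log2 fold change in hypoxia was 2.57 (SE 0.34, adjusted p by edgeR = 1.16e-07). Line 5967 was at 0.36, 0.64 and 0.30 CPM in Norm-Veh, 2.67, 3.55 and 3.70 CPM in Norm-Zota, 1.95, 0.55 and 0.95 CPM in Hyp-Veh and 4.60, 4.01 and 4.43 CPM in Hyp-Zota. Its Hyp-Zota libraries lay above all the others, and Hyp-Veh replicate 1 stood well above the other 2 vehicle libraries of its group. The log2 fold change in hypoxia was 1.88 (SE 0.32, adjusted p by edgeR = 6.47e-06), and 2.50 without Hyp-Veh replicate 1.

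Members 4, 7, 8 and 10 rose in hypoxia with log2 fold changes from 1.25 to 1.84. Member 4 was at 0.18, 0.13 and 0.30 CPM in Norm-Veh, 2.39, 3.43 and 2.47 CPM in Norm-Zota, 0.49, 1.10 and 0.38 CPM in Hyp-Veh and 2.47, 2.33 and 2.31 CPM in Hyp-Zota. Its Hyp-Zota libraries were the closest together of any member (coefficient of variation 3.71%), and its log2 fold change in hypoxia was 1.84 (SE 0.38, adjusted p by edgeR = 0.000124). Member 10 was at 0.31, 0.51 and 0.49 CPM in Norm-Veh, 2.88, 1.53 and 2.21 CPM in Norm-Zota, 0.82, 0.64 and 0.86 CPM in Hyp-Veh and 1.99, 1.68 and 2.60 CPM in Hyp-Zota. Its 3 Hyp-Zota libraries all lay above its 3 Hyp-Veh libraries, and the log2 fold change was 1.41 (SE 0.38, adjusted p by edgeR = 0.00195). Member 7 was at 0.25, 0.51 and 0.18 CPM in Norm-Veh, 2.39, 2.20 and 2.40 CPM in Norm-Zota, 0.57, 0.73 and 0.48 CPM in Hyp-Veh and 1.92, 0.84 and 1.73 CPM in Hyp-Zota. Member 8 was at 0.55, 0.32 and 0.49 CPM in Norm-Veh, 1.47, 2.45 and 3.05 CPM in Norm-Zota, 1.23, 0.64 and 0.76 CPM in Hyp-Veh and 2.75, 2.07 and 1.44 CPM in Hyp-Zota. In both lines the lowest Hyp-Zota library came close to the highest Hyp-Veh library without reaching it. Their log2 fold changes were 1.30 (SE 0.43, adjusted p by edgeR = 0.0107) for member 7 and 1.25 (SE 0.38, adjusted p by edgeR = 0.00615) for member 8. Both calls were lost without Hyp-Zota replicate 1, at edgeR, adjusted p = 0.0766 and 0.0515.

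Members 3 and 5 had the smallest fold changes between the arms at low oxygen. Member 3 had a very even vehicle level in normoxia, 0.18, 0.19 and 0.18 CPM from 3 counts in each library, and 2.60, 2.57 and 3.83 CPM in Norm-Zota. In hypoxia it was at 0.82, 0.82 and 1.24 CPM with vehicle and 1.37, 1.81 and 2.02 CPM with zotatifin. The vehicle libraries were higher and the zotatifin libraries lower than in normoxia, with no overlap in either arm. Its log2 fold change in hypoxia was 0.84 (SE 0.36, adjusted p by edgeR = 0.0453), a call that was lost with any one of 6 libraries left out, with DESeq2 (adjusted p = 0.0908), with upper quartile scaling (edgeR, adjusted p = 0.0549) and without the filter on low counts (edgeR, adjusted p = 0.121). Those 6 were Hyp-Veh replicates 1 and 2, Hyp-Zota replicates 2 and 3 and Norm-Zota replicates 2 and 3, with edgeR adjusted p from 0.0521 to 0.14. Member 5 was at 0.31, 0.38 and 0.61 CPM in Norm-Veh, 1.68, 2.88 and 3.31 CPM in Norm-Zota, 1.06, 0.27 and 0.29 CPM in Hyp-Veh and 0.82, 0.97 and 1.44 CPM in Hyp-Zota. Hyp-Veh replicate 1 lay among the zotatifin libraries, and the other 2 vehicle libraries lay below them. The log2 fold change was 0.92 (SE 0.49, adjusted p by edgeR = 0.112). Without Hyp-Veh replicate 1 it was 1.86 (edgeR, adjusted p = 0.00969), so that this library decided the call.

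**Figure D3:**
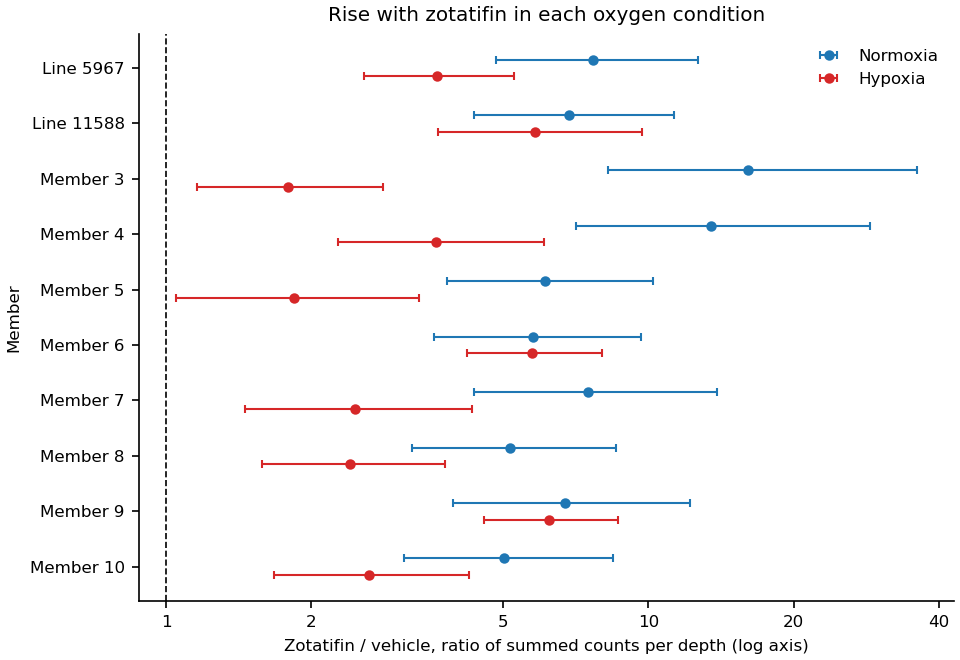
Ratio of zotatifin to vehicle for each member, from counts summed over 3 libraries and divided by summed depth, in normoxia and in hypoxia, on a log axis. Bars are exact 95% counting intervals, which leave out the spread between replicates. All intervals lie above 1, also that of member 5 in hypoxia (1.05 to 3.35), which edgeR did not call. Those of member 3 are 8.25 to 36.0 in normoxia and 1.16 to 2.82 in hypoxia.

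The size of the difference was then set side by side for the 2 oxygen conditions. Ratios of summed counts per depth ran from 5.01 (member 10) to 16.1 (member 3) in normoxia, and from 1.79 (member 3) to 6.23 (member 9) in hypoxia. Member 3 had 9 vehicle counts against 138 zotatifin counts in normoxia and 32 against 69 in hypoxia. Its ratios were 16.1 with an exact 95% counting interval from 8.25 to 36.0 and 1.79 with an interval from 1.16 to 2.82. Member 4 followed with 13.5 (7.09 to 28.8) in normoxia and 3.63 (2.27 to 6.07) in hypoxia. The intervals cover counting error only. The normoxia ratios chose the members and are raised by that choice, so the difference between the oxygen conditions was not tested.

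Levels were then compared within each drug arm. All 10 members had a higher mean in Hyp-Veh than in Norm-Veh, by ratios of 1.25 to 5.16, and in 7 of them the 3 Hyp-Veh libraries lay above the 3 Norm-Veh libraries. Over all tested lines 53.5% had a higher mean in Hyp-Veh and 25.2% showed that order of libraries. The members were chosen for a low Norm-Veh level, so no test was made. Lines too scarce to be tested held 0.216% to 0.296% of the counts in Hyp-Veh and 0.224% to 0.269% in Hyp-Zota, against 0.120% to 0.132% in Norm-Veh and 0.121% to 0.128% in Norm-Zota. The part of this shift between oxygen conditions in the vehicle levels of the members was not tested. It differed little between the drug arms. With zotatifin the members went both ways: 4 had a higher mean in Hyp-Zota than in Norm-Zota and 6 a lower one. Line 5967 and members 6 and 9 had all 3 Hyp-Zota libraries above all 3 Norm-Zota libraries, and members 3, 5 and 7 had them all below. These orders were seen in 29.0% and 23.4% of the tested lines, so the 3 members each way were near the background.

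Of the 10 members, 7 reached a mean of 2 CPM in Hyp-Zota, the level the rule had asked for in Norm-Zota. All 7 were called higher, against 27.7% of all tested lines at any level. The share of tested lines reaching 2 CPM in Hyp-Zota was not computed. Members 3, 5 and 7 stayed below 2 CPM in Hyp-Zota, at 1.74 ± 0.33, 1.08 ± 0.32 and 1.5 ± 0.58 CPM (SD, n = 3). Conversely, the vehicle level in hypoxia was never as low as the rule had asked for in normoxia, with Hyp-Veh means from 0.54 CPM (member 5) to 1.37 CPM (member 6). When the limits of 0.5 and 2 CPM were applied to the hypoxia groups, 18 of all 60230 lines met them. None of the 18 was a member (0 of 10), which follows from the Hyp-Veh means just given and has no reading of its own. The mirror pattern in hypoxia was met by 15 lines.

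In the drug groups no member rested on a single library. In Norm-Zota no member had more than 43.8% of its summed CPM in one library, where an even split gives 33.3%. In Hyp-Zota, which the rule used only within the overall mean, the highest share was 44.8%. The count of members with over 50% in one library was 0 in both drug groups. Since only 2.15% (Norm-Zota) and 2.86% (Hyp-Zota) of tested lines at 2 to 4 CPM in the same group passed that share, a count of 0 among 10 is near the background. By the medians of share and coefficient of variation the members were somewhat less even than these lines. In Norm-Zota the lines were of like level, but the members were chosen by their mean in this group. In Hyp-Zota the member means ran from 1.08 CPM (member 5) to 8.46 CPM (member 9), so the levels matched only in part. The median highest share was 41.2% against 38.6% in Norm-Zota and 40.1% against 38.9% in Hyp-Zota. The median coefficient of variation was 21.1% against 16.5% in Norm-Zota and 20.7% against 17.6% in Hyp-Zota. The most even member in Norm-Zota was member 7 (34, 36 and 37 counts, highest share 34.4%), and the least even was member 8 (21, 40 and 47 counts, highest share 43.8%). Of the 10 members, 6 had every Norm-Zota library at 2 CPM or more, and the others reached the limit through their mean.

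**Figure D4:**
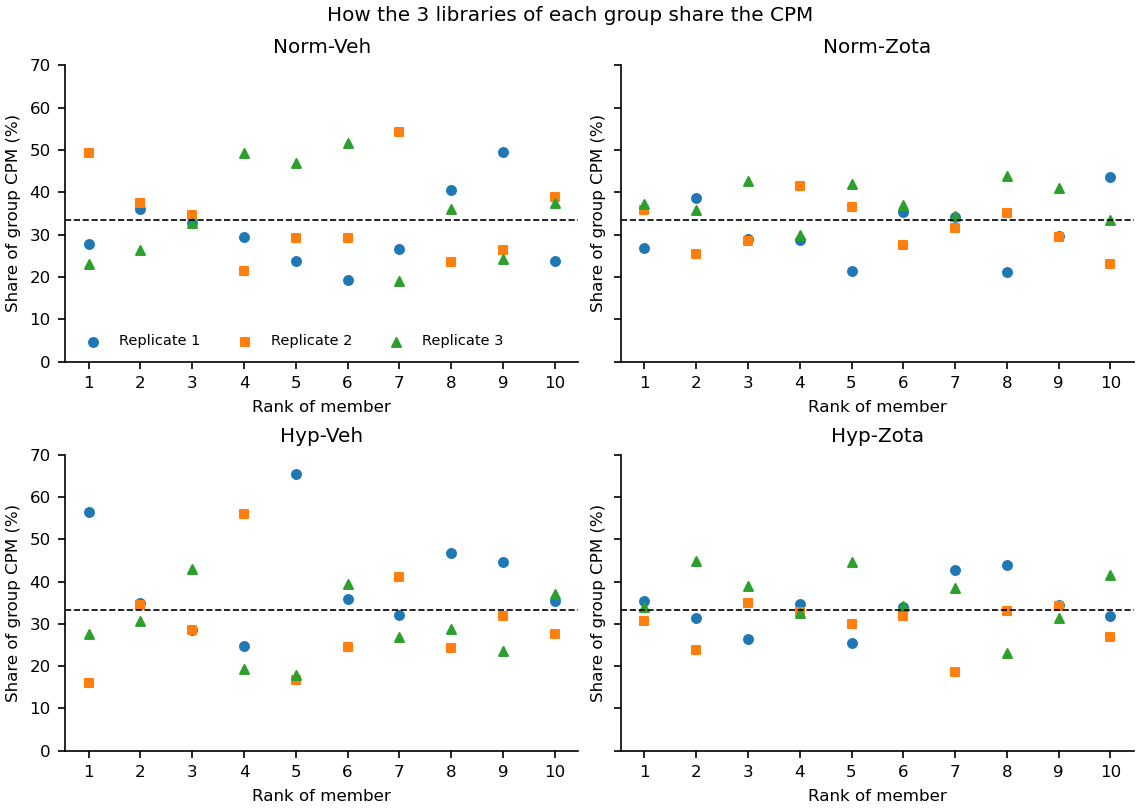
Share of the summed CPM of each group (percent) held by each of its 3 libraries, for the members in order of rank; the dashed line is the even share of 33.3%. Shares in the zotatifin groups stay below 44.8% or reach it, and those in the vehicle groups spread up to 65.4%.

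Vehicle libraries were less even in share. One library held over 50% of the summed CPM in 2 of the 10 members in Norm-Veh and in 3 in Hyp-Veh, against 6.72% and 5.95% of all tested lines above 0 in these groups. At 2 to 4 CPM, a level above that of the members with vehicle, the shares of tested lines were 4.15% and 4.91%. The most uneven was member 5 in Hyp-Veh, with 13, 3 and 3 counts and 65.4% in replicate 1. Line 5967 had 56.5% of its Hyp-Veh level in replicate 1 and member 4 had 55.7% in replicate 2. The scatter was also set against counting error. The chi-square per degree of freedom, which is near 1 when replicates differ by counting error only, was 0.822 over the members in Norm-Veh, 1.66 in Hyp-Veh, 2.16 in Norm-Zota and 1.47 in Hyp-Zota. In Hyp-Veh the 3 members just named scattered beyond counting error, at 5.13 for line 5967, 4.22 for member 5 and 2.49 for member 4. The Norm-Veh shares were no wider than counting error over the members, and the Norm-Zota counts, though more even in share, scattered more than their larger numbers would give by counting. The median per member in Norm-Zota was 2.06, against 1.18 over the 1439 tested lines at 2 to 4 CPM in that group. The members were chosen by their means in Norm-Veh and Norm-Zota, so the scatter in both groups may carry that choice. It is given as a description only. In Hyp-Zota the medians were 1.00 and 1.16, so by this median the members as a set were not less even there. Single members differed widely in Hyp-Zota. Line 11588 stood at 4.86, member 7 at 3.35 and member 8 at 2.43, beyond counting error. The others lay between 0.0442 (member 4) and 1.29 (member 10).

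No single library supplied the members as a set. In Norm-Zota the highest library was replicate 3 for 7 members, replicate 1 for 2 and replicate 2 for 1. In Hyp-Zota it was replicate 1 for 5 members and replicate 3 for 5. The summed counts of the 10 members were 347, 409 and 460 in the Norm-Zota libraries and 528, 504 and 386 in the Hyp-Zota libraries. In the vehicle groups they were 55, 60 and 63 in Norm-Veh and 133, 84 and 85 in Hyp-Veh, where replicate 1 was the highest. These counts are not adjusted for depth. In CPM the Hyp-Zota sums were 36.2, 32.6 and 37.1, so that replicate 3, the lowest by count, was the highest.

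The member values were mostly whole numbers. Among their 120 values 8.33% lay more than 0.0005 from a whole number, in 4 of the 10 members, against 45.3% of the nonzero values over all tested lines. The tested lines reach far higher counts than the members, and the share at the members' level was not computed.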

How the data were processed

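RNA-seq libraries were made from total RNA of 22Rv1 cells with a stranded kit, per the labels' protocols. The authors deposited 1 table of estimated counts, 1 line per feature and 1 column per library, and the column totals show no common scaling. The submitters' processing notes name Salmon, DESeq, DESeq2 and hg38 without saying what each was used for, and no source used here states the annotation. Columns were matched to libraries by name.

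CPM used the column total of the unrounded values. For the test, counts were rounded and filtered with filterByExpr (minimum count 10, minimum total 15). The test was edgeR's quasi-likelihood test (edgeR 4.0.16, R 4.3.3; TMM, robust, 1 mean per group, all 12 libraries, two-sided, Benjamini-Hochberg over 17993 lines, threshold 0.05). It was also run on simulated counts in which lines drawn from all tested lines were raised. That run does not measure how the test calls lines at the members' low counts. The common biological coefficient of variation was 6.11%. Ratios of summed counts carry exact conditional binomial 95% intervals. Evenness was measured as the highest library's share of the group's CPM and as chi-square per degree of freedom against depth-proportional counts.

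The rule, the members and the tests were chosen with earlier results of these data known. Members were ranked by Norm-Zota mean; the first 2 are printed by line number and all 10 are described. No gene lists or cell markers could be matched to unnamed lines. Alternatives were DESeq2 1.42.0, other scaling factors, no filter, hypoxia libraries only, a replicate block, each library left out, other pseudocounts and other limits of the rule.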

Additional observations from a re-analysis of the deposited data

How the results depend on the processing

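The number of members called higher in hypoxia was 9 with the settings of the report. It was 8 with DESeq2, with upper quartile factors, without a low-count filter and in a fit of the hypoxia libraries alone, where member 7 did not pass the filter. It was 7 to 9 with 1 library left out, and 10 of 11 lines when the rule was applied to TMM-scaled CPM. Of the 2 lines below 0.25 CPM in Norm-Veh, 2 were called. No line reached 4 CPM in Norm-Zota under the rule, so that alternative gave no value for the calls or for evenness. All 10 members were called in normoxia under each of the 17 alternatives run.

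The median log2 ratio of mean CPM + 0.1 in hypoxia was 1.52, and 1.17 with a pseudocount of 0.5 CPM. Over the other alternatives it was 1.25 to 1.77. The log2 fold change in hypoxia was 1.55 to 2.50 for line 5967 and 2.31 to 2.77 for line 11588 over 18 alternative fits, with adjusted p up to 0.00022 and 3.98e-06. No scaling moved the median of all tested lines beyond -0.05.

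The membership itself depended more on single libraries. In an alternative chosen after seeing the data, the rule applied without 1 normoxia library found 12 to 20 lines, of which 8 to 10 were members. It found 20 without Norm-Veh replicate 3 and 19 without Norm-Zota replicate 2. Of these lines, 16 and 14 were called higher in hypoxia, against 27.7% of all tested lines. In the left-out library itself, 7 of the 20 lines and 8 of the 19 met the limit of its group. Over the 6 such runs, 5 to 8 lines did so.

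Replicate numbers did not pair the libraries. The correlation of same-numbered deviations from the group mean was -0.03, -0.03 and 0.04 in hypoxia and 0.01, -0.04 and -0.02 in normoxia. With the replicate number as a block, 9 members were called in hypoxia and 10 in normoxia. With 9 to 22 vehicle counts per member in normoxia, depth limits the precision of every ratio.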
